A study of Mus musculus with 32 samples.

Results

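Immediate early genes are genes whose transcription starts within minutes of a stimulus and needs no new protein. The values given here are those of 10 of them, chosen by name from the 26331 named genes of each count table: Fos, Fosb, Fosl2, Jun, Junb, Jund, Egr1, Ier2, Arc and Npas4. They were measured by RNA sequencing of bulk forebrain tissue from 32 mouse embryos, 1 embryo per library, as counts of reads per gene. Of the 10 genes, 9 had enough reads to be tested, and Fosb, with 0 to 12 reads per library, did not.

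The libraries form 8 groups, in a pair of mouse backgrounds. On C57BL/6, the groups were labelled Kat6b knockout (KO) and wild type (WT), with 5 libraries each from cortex at E15.5 (E, embryonic day) and 3 each from dorsal telencephalon at E12.5. On a mixed FVBxBALB/c background, the groups were Tg(Kat6b), which carries a Kat6b transgene, and WT, with 4 libraries each from E15.5 cortex and 4 each from E12.5 dorsal telencephalon. Kat6b encodes a histone acetyltransferase of the MYST family, and the design asks what its loss and its gain change. What drives the transgene, and which form of knockout allele was used, the labels do not say. All C57BL/6 libraries belong to sequencing batch 2 and all FVBxBALB/c libraries to batch 1, so that background and batch cannot be told apart.

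FOS and JUN proteins are leucine zipper transcription factors that pair with each other to form activator protein 1 (AP-1), and FOS proteins need a JUN partner to bind DNA stably. EGR1 is a zinc finger transcription factor, NPAS4 is a basic helix-loop-helix factor induced by calcium entry in neurons, and ARC is a synaptic protein that controls glutamate receptor traffic. In the adult cortex these genes are the standard readout of neuronal firing, while several of them are also induced by growth factors in dividing cells. Their promoters are classically bound by the serum response factor (SRF), by CREB and by other factors that kinases activate.

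Because these genes are defined by how their promoters respond, the proximal promoters are shown for the 4 members on which most of the values below turn. Sequences are the 250 bases before the annotated start, from RefSeq on GRCm38.p6, which held 7 of the 10 members (all but Egr1, Ier2 and Arc). They are written 5′ to 3′ on the strand of the gene. Capitals mark matches to the motifs searched on either strand. These were the CArG box of SRF, the CREB site TGACGTCA, its core TGACG (which overlaps the full site), the AP-1 site TGANTCA, the EGR site GCGNGGGCG, CCAAT and TATAAA. The windows lie at chr5:32136222-32136471 on the plus strand for Fosl2, at chr8:84978749-84978998 on the minus strand for Junb, at chr4:95052223-95052472 on the minus strand for Jun and at chr12:85473640-85473889 on the plus strand for Fos.
Fosl2: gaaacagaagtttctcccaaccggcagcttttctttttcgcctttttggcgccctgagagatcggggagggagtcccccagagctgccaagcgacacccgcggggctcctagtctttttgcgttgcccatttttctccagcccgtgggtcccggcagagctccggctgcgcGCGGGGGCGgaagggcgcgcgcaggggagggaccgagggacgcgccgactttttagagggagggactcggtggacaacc
Junb: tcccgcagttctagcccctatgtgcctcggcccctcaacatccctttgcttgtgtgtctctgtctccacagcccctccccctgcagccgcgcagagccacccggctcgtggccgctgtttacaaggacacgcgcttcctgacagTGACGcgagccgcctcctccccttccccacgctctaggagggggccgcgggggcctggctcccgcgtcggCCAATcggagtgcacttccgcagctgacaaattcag
Jun: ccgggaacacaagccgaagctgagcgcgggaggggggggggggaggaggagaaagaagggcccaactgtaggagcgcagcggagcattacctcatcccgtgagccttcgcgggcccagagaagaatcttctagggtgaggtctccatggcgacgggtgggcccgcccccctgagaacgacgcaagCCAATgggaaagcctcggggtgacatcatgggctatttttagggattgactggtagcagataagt
Fos: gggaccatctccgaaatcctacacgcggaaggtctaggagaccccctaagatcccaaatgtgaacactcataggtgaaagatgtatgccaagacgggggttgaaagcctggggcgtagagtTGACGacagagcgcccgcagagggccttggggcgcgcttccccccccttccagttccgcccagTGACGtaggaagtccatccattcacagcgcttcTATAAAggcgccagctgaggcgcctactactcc

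The Fos window holds TGACG at 129 to 125 and at 66 to 62 bases before the start, and TATAAA at 33 to 28 bases. Junb holds TGACG at 106 to 102 bases and CCAAT at 36 to 32 bases. The Jun window has CCAAT at 65 to 61 bases, and Fosl2 has the EGR motif GCGNGGGCG at 79 to 71 bases. Of the other members with a sequence, Npas4 and Fosb hold TGACG, Fosb also holds GCGNGGGCG, and Jund holds none of the 7 motifs. The Npas4 window (chr19:4989972-4990221, minus strand) lies inside the gene span given below. The Fosb window (chr7:19310046-19310295, minus strand) overlaps its gene span. Both windows thus go with an annotated start inside the span and not with its end. Among 32851 mouse promoters of the same 250 bases, 17.8% hold TGACG, 33.8% CCAAT, 12.4% TATAAA and 4.70% GCGNGGGCG. The rarer CArG box, TGACGTCA and TGANTCA occur in 1.47%, 1.55% and 6.75% of promoters and were not in the windows of these members. A match is a run of letters and not a measured binding site. Only exact matches within the 250 bases were counted. Near matches, such as tgacatca in the Jun window, and sites farther upstream were not searched for. A window without a match therefore does not show that the gene lacks such a site.

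All 10 genes are protein coding and were matched by Entrez identifier to RefSeq on GRCm38.p6, the assembly that mm10 names. The FOS family lies on separate chromosomes, with Fos (Entrez 14281) at chr12:85473890-85477274, Fosb (14282) at chr7:19302696-19310118 and Fosl2 (14284) at chr5:32136472-32157840. Jun (16476) lies at chr4:95049036-95052222, whereas Junb (16477, chr8:84976909-84978748), Jund (16478, chr8:70697739-70700616) and Ier2 (15936, chr8:84661331-84662852) share chromosome 8. Arc (11838) lies at chr15:74669081-74672570, Npas4 (225872) at chr19:4984353-5003439 and Egr1 (13653) on chromosome 18.

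Libraries held 10424813 to 49699656 counts. The sum of all 8 defining markers of dorsal telencephalon and cortex lay between 1195 and 4146 CPM, counts scaled to library depth, in the libraries, and none of the 8 was at 0 in any group. Kat6b was raised 3.62-fold in Tg(Kat6b) at E15.5 (95% interval 2.99 to 4.38, adjusted p = 1.64e-06) and 3.09-fold at E12.5 (2.56 to 3.73, adjusted p = 1.03e-05). In the labelled KO it was 1.03 times the WT level at E15.5 and 0.896 times at E12.5, and neither passed the test. A whole-gene count does not check a knockout whose allele still makes transcript, so these libraries are called by their label. The ribosomal RNA precursor Rn45s took 17.5% of the counts in labelled KO library 3 at E15.5 and at most 0.664% elsewhere. Both C57BL/6 E15.5 libraries numbered 5 have a column header naming E12.5 replicate 2, and the labelled KO one has a tissue label of dorsal telencephalon. In summed neuron markers the labelled KO and WT ones had 9837 and 9061 CPM, beside 3190 to 4562 and 3097 to 4435 CPM at E12.5. In summed erythroid markers they had 190 and 252 CPM, beside 1366 to 3798 and 2125 to 3934 CPM at E12.5. They were analysed as E15.5 by their titles. Leaving out both libraries numbered 5, or labelled KO E15.5 libraries 3 and 4 together, changed no call on a member's fold change. Values are given in the order of the replicate numbers, which at E12.5 in C57BL/6 are 1, 3 and 4.

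The 10 genes differed in level by 3 orders of magnitude. Levels are compared between genes as CPM per kilobase of gene length (CPM per kb). At E15.5, Jund was highest at 77.2 ± 22.2 CPM per kb, followed by Jun at 32.9 ± 4.45, Ier2 at 11.4 ± 1.63, Fosl2 at 5.08 ± 1.09 and Junb at 2.92 ± 0.469 (SD, n = 18 libraries of 4 groups). Below them came Arc at 1.95 ± 0.392 CPM per kb, Egr1 at 0.945 ± 0.263, Npas4 at 0.485 ± 0.160, Fos at 0.478 ± 0.126 and Fosb at 0.05 ± 0.0307 CPM per kb. Fos, the member most used as a marker of firing, thus stood next to last. Each gene was above the next in 17 or 18 of the 18 libraries, except that Npas4 was above Fos in 10 of 18.

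At E12.5 the same 3 genes led, with Jund at 70.9 ± 25.7 CPM per kb, Jun at 37.6 ± 5.13 and Ier2 at 17.0 ± 3.88 (SD, n = 14 libraries of 4 groups). Fosl2 was number 7 in this order at 0.671 ± 0.248 CPM per kb, against number 4 at E15.5. Junb (1.81 ± 0.329 CPM per kb), Egr1 (1.39 ± 0.509) and Arc (1.04 ± 0.312) were above it. Junb exceeded Egr1 in 12 of 14 libraries, Egr1 exceeded Arc in 10 and Arc exceeded Fosl2 in 11, so these neighbours overlap. Fos (0.369 ± 0.175 CPM per kb) exceeded Npas4 (0.336 ± 0.199) in 8 of 14 libraries, and Fosb was last at 0.0213 ± 0.0181 CPM per kb.

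**Figure D1:**
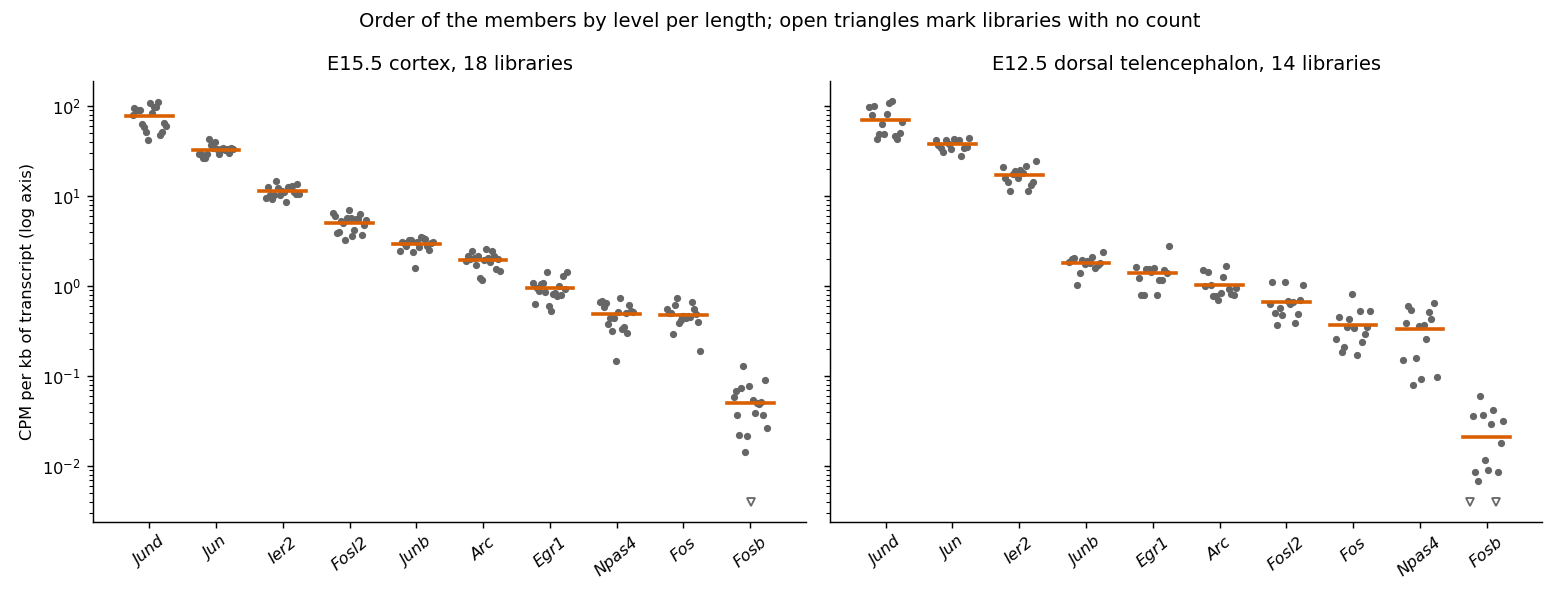
Level of the 10 genes in CPM per kilobase on a log axis, at E15.5 (left, 18 libraries) and at E12.5 (right, 14 libraries); points are libraries, bars are means and open triangles are libraries with no count. Jund, Jun and Ier2 lead at both ages, and Fosl2 is number 4 at E15.5 and number 7 at E12.5.

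Fosb, a FOS family member whose short splice form accumulates in adult neurons under repeated stimulation, was barely detected. It had 0.484, 0.0545, 0.0809 and 0.290 CPM in Tg(Kat6b) and 0.196, 0.138, 0.346 and 0.0992 CPM in WT cortex at E15.5. In C57BL/6 cortex it had 0.224, 0.261, 0.139, 0.0827 and 0.280 CPM in the labelled KO and 0, 0.204, 0.148, 0.192 and 0.183 CPM in WT. At E12.5 the highest of the 14 libraries had 0.226 CPM. A library was at 0 in 3 groups, where 3 counts, the limit that a count of 0 allows, correspond to 0.124 CPM in labelled KO E12.5 library 1, 0.268 CPM in C57BL/6 WT E15.5 library 1 and 0.190 CPM in FVBxBALB/c WT E12.5 library 1. Differences in Fosb were not detectable at this depth, and with no filter on low counts its age values of 0.69 to 1.74 on the log2 scale did not pass (adjusted p from 0.0781 to 0.470).

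None of these genes was called in either genotype. No tested member passed an adjusted p of 0.05 in the labelled KO against WT (0 of 9 at E15.5 and 0 of 9 at E12.5) or in Tg(Kat6b) against WT (0 of 9 at both ages). The background is as low, since 0% and 0.00620% of 16118 genes were called for the labelled KO at E15.5 and E12.5, and 0.0129% of 15556 genes for Tg(Kat6b) at either age. With the replicate number within each age as a block, the 1 gene called for the labelled KO at E12.5 is 0. In C57BL/6 these numbers mark shared litters, except that at E12.5 numbers 3 and 4 come from the same litter. At an unadjusted p under 0.05, 456 and 842 genes passed for the labelled KO at E15.5 and E12.5 and 346 and 1039 for Tg(Kat6b). Among them was 1 member, Jun in the labelled KO at E15.5, and DESeq2 and limma-voom called no member either.

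Jun, an AP-1 subunit that can also pair with itself, was the member whose genotype groups separated. It had 93.4, 93.1, 85.5, 83.7 and 92.7 CPM in labelled KO cortex at E15.5, against 107, 94.8, 107, 110 and 105 CPM in WT cortex. Every labelled KO library lay below every WT library, which was so for 0.496% of all genes tested. The log2 fold change was -0.21 (SE 0.0634, unadjusted p = 0.00357), and the adjusted p was 1.00. Labelled KO libraries 3 and 4, the lowest in Jun, also stood apart in cortex and meningeal markers. Their summed cortex markers were 1759 and 1730 CPM, beside 2373 to 2597 CPM in the other labelled KO libraries and 2138 to 2667 CPM in WT. Their meningeal markers summed to 347 and 337 CPM, beside 78.3 to 121 CPM and 86.5 to 230 CPM, and their markers of diencephalon, midbrain and hindbrain to 258 and 248 CPM, beside 22.0 to 30.7 CPM and 21.3 to 241 CPM. The 241 CPM came from WT library 2, which was also the lowest WT library in Jun (94.8 CPM) and in cortex markers (2138 CPM). The part of tissue makeup in the Jun values was not tested. All 8 cortex markers had a log2 fold change below 0 in the labelled KO at both ages, and none passed. Without libraries 3 and 4 the value of Jun was -0.17 (adjusted p = 1.00). At E12.5 Jun had 136, 118 and 109 CPM in the labelled KO and 138, 130 and 135 CPM in WT, and those groups overlap (log2 fold change -0.16, SE 0.0812). Within same-numbered C57BL/6 libraries, Jun was lower in the labelled KO in 5 of 5 pairs at E15.5, which follows from the groups being apart. At E12.5 it was lower in 3 of 3, but libraries 3 and 4 of both genotypes come from the same litter, so their pairing is arbitrary. With the replicate number within each age as a block, Jun did not pass at E15.5 (-0.21, adjusted p = 1.00) or E12.5 (-0.16, adjusted p = 0.775). In Tg(Kat6b) its log2 fold change against WT was 0.25 (SE 0.127) at E15.5 and 0.03 (SE 0.125) at E12.5, and neither passed.

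The intervals show what sizes these data leave possible for each gene taken alone. They are not adjusted for the number of genes tested. For Jun they were narrow, at 0.786 to 0.946 times WT in the labelled KO at E15.5 and 0.987 to 1.43 times WT in Tg(Kat6b). The first of these lies below the WT level, but Jun did not pass the adjusted test, so no decrease is established. Fos spanned 0.621 to 1.54 times WT in the labelled KO and 0.636 to 2.31 times WT in Tg(Kat6b) at E15.5. Npas4, the widest, spanned 0.706 to 2.03 and 0.289 to 1.64 times WT in the same comparisons. Of the 9 members, 3 were above and 6 below a log2 fold change of 0 in the labelled KO at E15.5, and 5 were above and 4 below at E12.5. In Tg(Kat6b) 4 were above and 5 below at E15.5, and 2 above and 7 below at E12.5. Their median log2 fold changes in the labelled KO were -0.04 at E15.5 and 0.01 at E12.5, beside 0.01 and -0.01 over all genes tested. In Tg(Kat6b) the medians were -0.05 at E15.5 and -0.10 at E12.5, beside 0.00 and -0.01.

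The genotype effect was not shown to differ between the ages by a test of that difference. Of the 9 members, 0 passed for the labelled KO and 0 for Tg(Kat6b), with 0% of all genes called in either, although 438 and 628 genes had an unadjusted p under 0.05. The difference of the log2 effects (E15.5 minus E12.5) ranged from -0.38 (Npas4) to 0.19 (Egr1) for the labelled KO and from -0.07 (Arc) to 0.22 (Jun) for Tg(Kat6b). No member had an unadjusted p under 0.05 in either, and no member was called by DESeq2 or limma-voom.

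**Figure D2:**
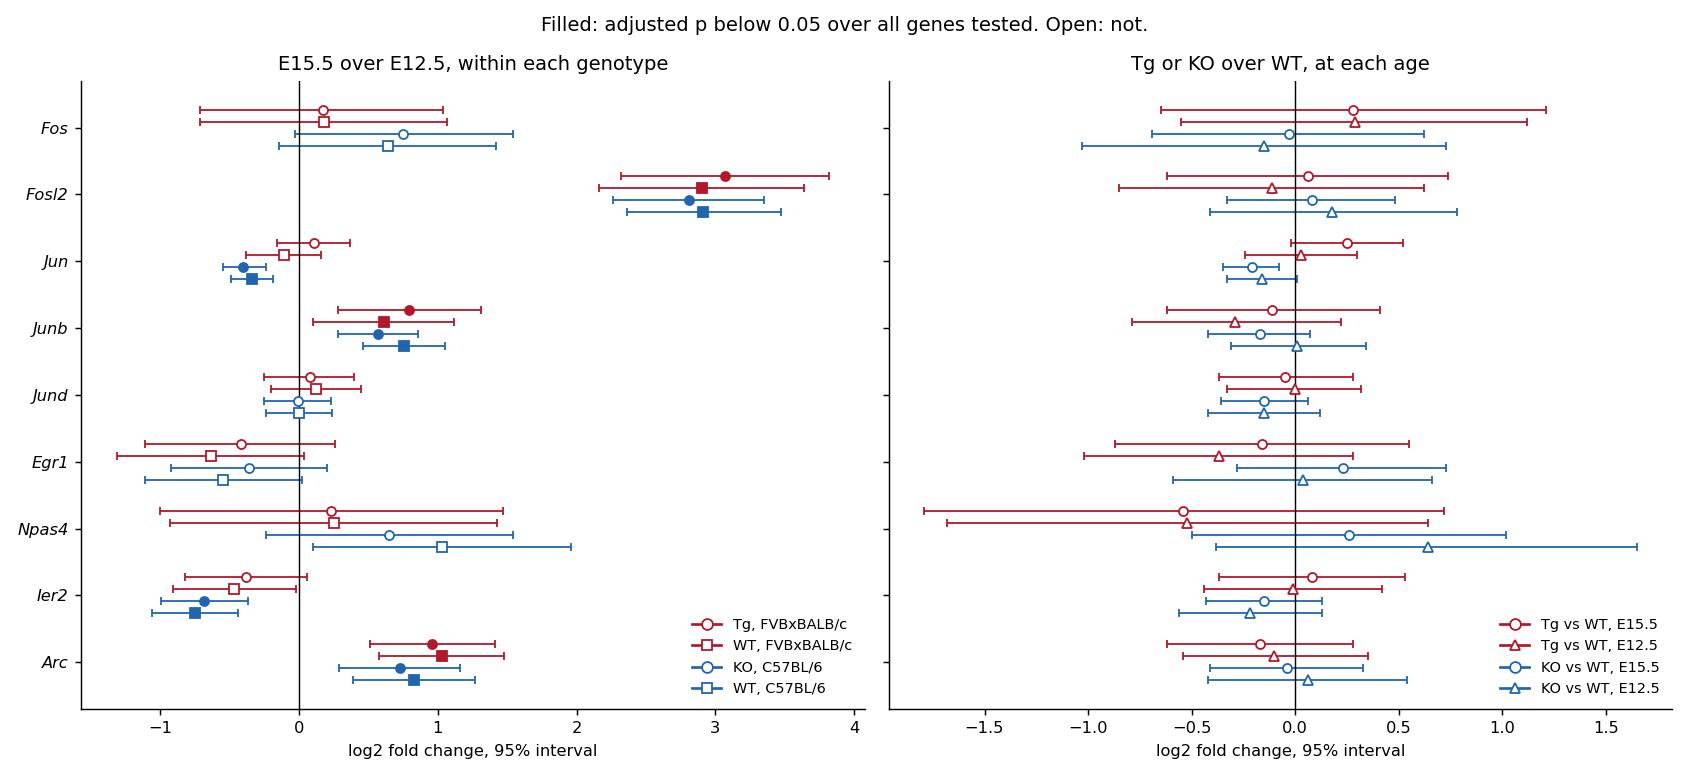
Log2 fold changes of the 9 tested members with 95% intervals, E15.5 over E12.5 within each genotype (left) and Tg(Kat6b) or labelled KO over WT at each age (right); filled symbols passed an adjusted p of 0.05. Fosl2, Junb and Arc pass in all 4 age comparisons, Jun and Ier2 in both C57BL/6 ones, and no symbol is filled for genotype.

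More members passed with age than with genotype. In the labelled KO 5 of 9 members passed the test, beside 56.4% of all genes tested, and in C57BL/6 WT 5 of 9, beside 56.8%. In each, 3 were higher and 2 lower at E15.5, where 29.4% and 27.0% of all genes were higher and lower in the labelled KO and 28.6% and 28.2% in WT. In Tg(Kat6b) 3 of 9 passed, beside 46.3%, and in FVBxBALB/c WT 3 of 9, beside 50.1%. All of these were higher at E15.5, where 23.8% of all genes were higher and 22.5% lower in Tg(Kat6b), and 25.1% higher and 25.1% lower in WT. The members' shares are at or below the background, so the number of them called is no result about this gene group. The ages did not overlap for 5 of 9 members in the labelled KO and 5 in C57BL/6 WT, beside 54.6% and 51.8% of all genes, and for 2 in Tg(Kat6b) and 3 in FVBxBALB/c WT, beside 43.2% and 43.1%. The tissue named by the labels also differs with age, and in bulk tissue a change in the cells present and a change in RNA per cell cannot be told apart. All 12 neuron markers rose with age in both WT backgrounds, and of 12 progenitor markers 8 fell and 3 rose in FVBxBALB/c WT and 9 fell and 3 rose in C57BL/6 WT. In FVBxBALB/c and C57BL/6 WT, 3 and 2 of 12 endothelial markers rose and 8 and 5 fell, and 6 and 5 of 12 microglial markers rose and 2 and 1 fell. Of 11 erythroid markers 7 and 10 fell and 0 and 1 rose, and caudal markers fell in 8 of 8 and 3 of 10 tested, with 0 higher. Without single libraries 3 to 8 and 2 to 5 microglial markers rose, and 5 to 10 and 10 of the erythroid and 8 to 9 and 2 to 5 of the caudal markers fell. The part of these cells in the members' values was not tested.

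Fosl2, which encodes the FOS relative FRA2, rose most. In FVBxBALB/c embryos it had 29.2, 19.0, 33.5 and 40.8 CPM in Tg(Kat6b) cortex at E15.5, against 2.18, 3.39, 2.77 and 6.48 CPM in Tg(Kat6b) tissue at E12.5. The WT libraries had 37.0, 21.5, 27.8 and 32.1 CPM at E15.5, against 2.27, 2.90, 4.15 and 6.06 CPM at E12.5. Every E15.5 library was above every E12.5 library.

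In C57BL/6 embryos Fosl2 had 38.5, 35.1, 23.1, 23.4 and 30.8 CPM in labelled KO cortex at E15.5, against 3.76, 6.54 and 2.96 CPM at E12.5. WT cortex had 33.5, 21.1, 24.7, 32.4 and 32.5 CPM at E15.5, against 4.00, 3.69 and 3.95 CPM at E12.5. The groups are again apart. The rise was 8.39-fold in Tg(Kat6b) (95% interval 4.98 to 14.1), 7.45-fold in FVBxBALB/c WT (4.46 to 12.4), 6.99-fold in the labelled KO (4.78 to 10.2) and 7.53-fold in C57BL/6 WT (5.12 to 11.1). The adjusted p lay between 2.52e-07 and 4.61e-06.

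At E12.5 the extremes of Fosl2 fell in the same libraries as those of meningeal markers, a pattern noticed after the values were seen. The meninges are the connective tissue that covers the brain. In each of the 4 groups, the library highest in Fosl2 was also highest in the summed CPM of 15 meningeal markers, and the lowest was also the lowest. The sums were 371, 780, 727 and 1768 CPM in Tg(Kat6b) and 548, 622, 1539 and 2607 CPM in FVBxBALB/c WT, in the order of the Fosl2 values above. In the labelled KO they were 1325, 2833 and 535 CPM, and in C57BL/6 WT 1839, 656 and 852 CPM. Fosl2 itself hardly varied in C57BL/6 WT, from 3.69 to 4.00 CPM at 75 to 166 counts per library. Its highest value there was 1.08 times the lowest, so the order of its libraries in that group carries little weight. At E15.5 the sums were lower, between 78.3 and 347 CPM, none of the 15 was at 0 in any group, and in 0 of 4 groups did the extremes coincide. Other cell types shared these extremes at E12.5 nearly as often. The library highest in Fosl2 was also highest in endothelial, microglial and erythroid markers in 3 of 4 groups each, and the lowest was also lowest in 4, 4 and 3 of 4. Cortex markers shared the lowest library in 2 of 4 groups and progenitor markers in 3 of 4, with 0 and 1 at the high end. At E15.5 neuron markers shared the highest library with Fosl2 in 3 of 4 groups and the lowest in 3 of 4, and erythroid and cortex markers the lowest in 3 of 4. Fosl2 rose with age while 0 of 15 of these markers rose and 14 (FVBxBALB/c WT) and 11 (C57BL/6 WT) fell; the part of these cell types in the E12.5 spread was not tested.

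Junb, an AP-1 subunit often described as a restraint on JUN activity, rose less. It had 6.05, 6.00, 4.45 and 2.90 CPM in Tg(Kat6b) at E15.5, against 1.88, 2.58, 3.61 and 3.24 CPM at E12.5. The lowest E15.5 library lies within the E12.5 range. FVBxBALB/c WT had 5.19, 4.66, 5.54 and 5.75 CPM at E15.5, against 2.90, 3.13, 3.30 and 4.38 CPM at E12.5, and these groups do not overlap. In the labelled KO Junb had 4.48, 5.67, 5.49, 5.08 and 5.55 CPM at E15.5, against 3.43, 3.71 and 3.75 CPM at E12.5. C57BL/6 WT had 5.71, 5.00, 6.49, 6.33 and 6.21 CPM at E15.5, against 3.52, 3.31 and 3.90 CPM at E12.5, so in both C57BL/6 genotypes the ages were apart.

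The log2 fold change of Junb was 0.79 in Tg(Kat6b) (SE 0.244, adjusted p = 0.0137), 0.61 in FVBxBALB/c WT (SE 0.241, adjusted p = 0.0446), 0.57 in the labelled KO (SE 0.138, adjusted p = 0.00203) and 0.76 in C57BL/6 WT (SE 0.138, adjusted p = 0.000191). Both FVBxBALB/c calls are fragile. In WT the call was lost with limma-voom (adjusted p = 0.0530), with no filter on low counts (0.0662) and with a correction for GC content (0.41, adjusted p = 0.108). It was also lost without E15.5 library 1, 3 or 4 or E12.5 library 1, 2 or 3 (log2 fold change 0.54 to 0.63, adjusted p from 0.0685 to 0.100). In Tg(Kat6b) Junb no longer passed with the GC correction (0.48, adjusted p = 0.0741), without E15.5 library 1 (adjusted p = 0.0518) or without E15.5 library 2 (0.0546).

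Arc, the synaptic effector of the list, was higher at E15.5 in every library than in any E12.5 library of its genotype. It had 5.33, 6.65, 3.80 and 3.58 CPM in Tg(Kat6b) at E15.5, against 3.11, 2.39, 2.35 and 2.15 CPM at E12.5. FVBxBALB/c WT had 6.56, 4.75, 6.16 and 4.56 CPM at E15.5, against 2.84, 2.51, 2.45 and 2.95 CPM at E12.5. The ranges do not overlap in either genotype.

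The C57BL/6 libraries gave the same picture for Arc. The labelled KO had 5.86, 6.65, 6.18, 7.44 and 6.27 CPM at E15.5, against 4.66, 3.03 and 4.36 CPM at E12.5. C57BL/6 WT had 5.98, 7.99, 6.25, 5.63 and 7.47 CPM at E15.5, against 2.54, 3.91 and 5.11 CPM at E12.5. Arc rose 1.94-fold in Tg(Kat6b) (95% interval 1.42 to 2.66, adjusted p = 0.00158), 2.04-fold in FVBxBALB/c WT (1.49 to 2.80, adjusted p = 0.000740), 1.66-fold in the labelled KO (1.22 to 2.24, adjusted p = 0.00632) and 1.77-fold in C57BL/6 WT (1.31 to 2.41, adjusted p = 0.00273).

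Jun and Ier2 fell with age in both C57BL/6 genotypes. Jun in the labelled KO and C57BL/6 WT is given above by library; its log2 fold change with age was -0.40 in the labelled KO (SE 0.0721, adjusted p = 0.000172) and -0.34 in WT (SE 0.0722, adjusted p = 0.000672), with no overlap between the ages in either. In FVBxBALB/c embryos Jun had 139, 117, 109 and 129 CPM in Tg(Kat6b) at E15.5, against 98.3, 133, 122 and 106 CPM at E12.5. FVBxBALB/c WT had 108, 95.9, 109 and 106 CPM at E15.5, against 88.6, 108, 113 and 141 CPM at E12.5. These ranges overlap, and the log2 fold changes of 0.11 (SE 0.126) and -0.11 (SE 0.126) did not pass.

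Ier2, an induced nuclear protein, had 14.6, 19.4, 15.6, 14.1 and 15.6 CPM in the labelled KO at E15.5, against 32.3, 24.2 and 21.7 CPM at E12.5. C57BL/6 WT had 16.9, 13.1, 19.2, 19.4 and 19.7 CPM at E15.5, against 29.8, 27.6 and 32.9 CPM at E12.5. Neither pair overlaps, and Ier2 fell to 0.624 times the E12.5 level in the labelled KO (95% interval 0.503 to 0.773, adjusted p = 0.000800) and to 0.595 times in WT (0.480 to 0.737, adjusted p = 0.000339).

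In FVBxBALB/c, Ier2 had 22.2, 18.9, 15.6 and 17.5 CPM in Tg(Kat6b) at E15.5, against 17.2, 26.6, 28.9 and 24 CPM at E12.5. WT had 17.0, 16.3, 21 and 16.2 CPM at E15.5, against 17.5, 20.5, 22.1 and 36.9 CPM at E12.5. Both pairs overlap, and the log2 fold changes of -0.38 (adjusted p = 0.151) and -0.47 (adjusted p = 0.0737) did not pass. Either passes without the lowest E12.5 library, which is library 1 of each genotype (-0.51, adjusted p = 0.0469 in Tg(Kat6b) and -0.59, adjusted p = 0.0268 in WT). Both also pass with a GC correction (-0.63 and -0.61), and the WT one in a fit of all 32 libraries (adjusted p = 0.0376).

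Whether the age effect differed between the WT backgrounds was tested directly. For Jun the difference of log2 effects, FVBxBALB/c minus C57BL/6, was 0.25 (SE 0.149, adjusted p = 0.787), and for Ier2 it was 0.30 (SE 0.267, adjusted p = 0.873). Of the 9 members 0 passed, beside 0.0305% of all genes tested, and none had an unadjusted p under 0.05 or was called by DESeq2 or limma-voom. The age falls of Jun and Ier2 in C57BL/6 are therefore not shown to be absent from FVBxBALB/c.

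**Figure D3:**
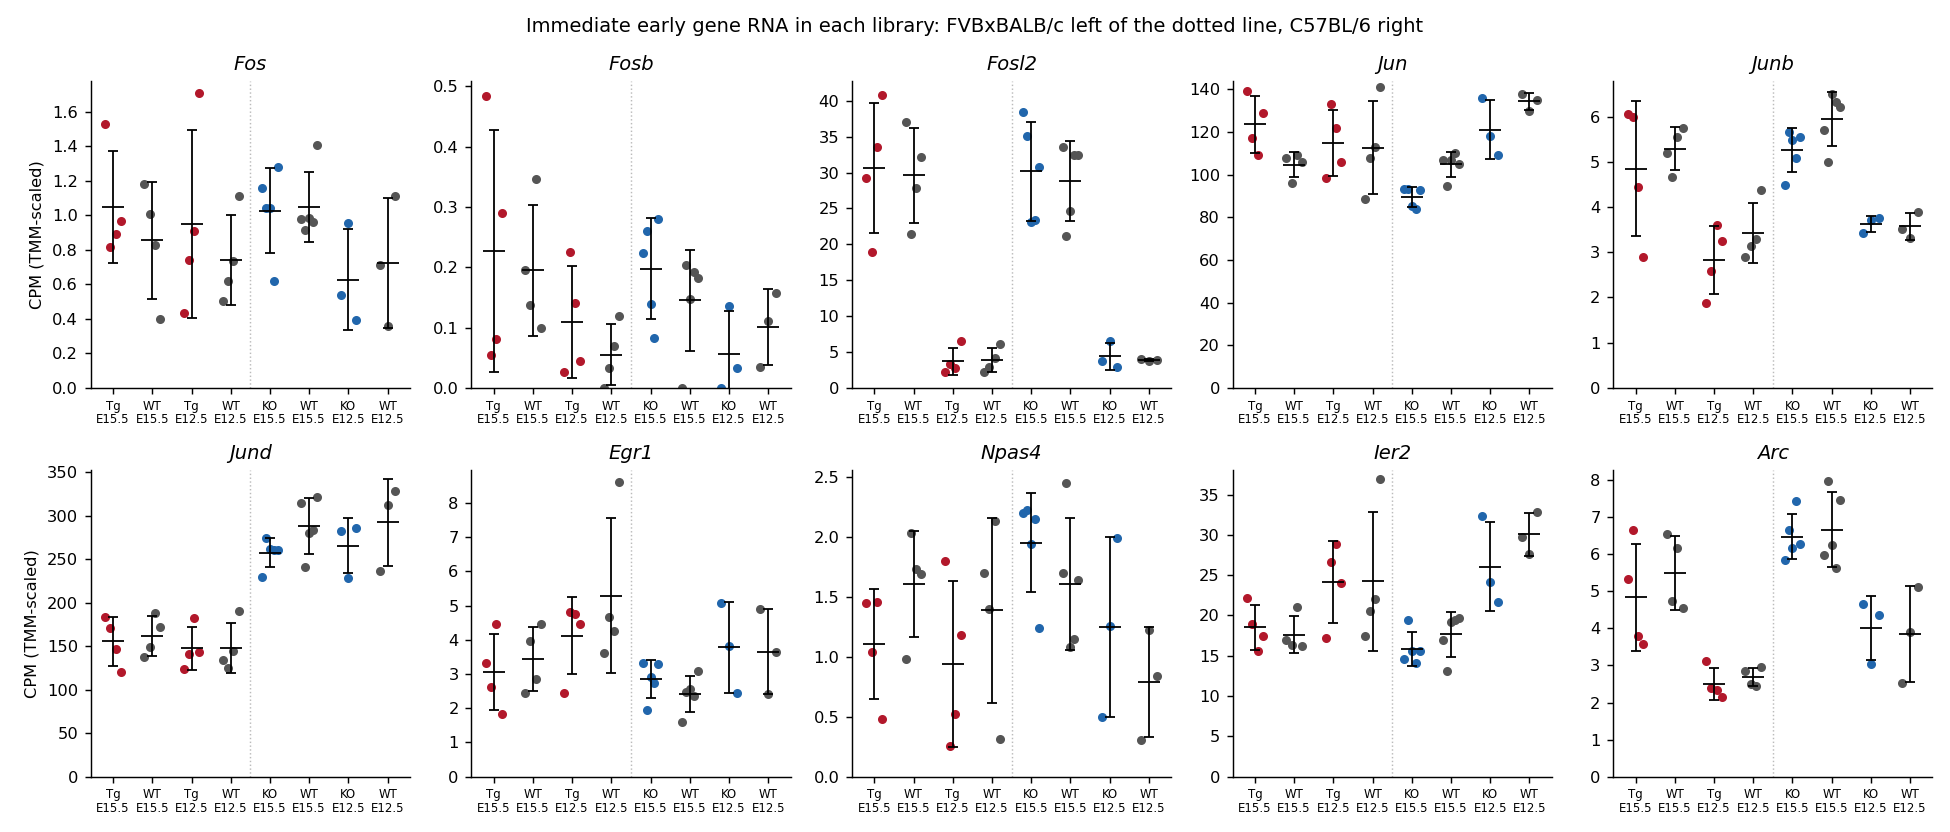
CPM of each of the 10 members in each of the 32 libraries on linear axes from 0, FVBxBALB/c left of the dotted line and C57BL/6 right of it; points are libraries, with mean and SD per group. The E15.5 libraries of Fosl2 lie between 19.0 and 40.8 CPM, above all E12.5 libraries at 2.18 to 6.54 CPM, and the FVBxBALB/c libraries of Jund lie below those of C57BL/6.

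Jund, Egr1, Fos and Npas4 did not pass with age in any group. Jund, the AP-1 subunit with the steadiest expression across cell types, had log2 fold changes of 0.08 in Tg(Kat6b), 0.12 in FVBxBALB/c WT, -0.01 in the labelled KO and -0.00 in C57BL/6 WT. With a GC correction these were -0.35 (adjusted p = 0.00472), -0.22 (0.0580), -0.20 (0.0253) and -0.32 (0.00105), so that its lack of an age call rests on the uncorrected counts. Egr1 was lower on average at E15.5 in every group, with log2 fold changes of -0.42, -0.63, -0.36 and -0.55 in that order and adjusted p-values from 0.0923 to 0.303. In C57BL/6 WT, Egr1 passes without E12.5 library 3 (-0.77, adjusted p = 0.0271) and with the GC correction (-0.69, adjusted p = 0.0477).

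Fos had 1.16, 1.04, 1.04, 0.620 and 1.28 CPM in the labelled KO at E15.5, against 0.537, 0.954 and 0.391 CPM at E12.5. C57BL/6 WT had 0.981, 0.918, 0.984, 0.959 and 1.41 CPM at E15.5, against 0.711, 0.356 and 1.11 CPM at E12.5. The ranges overlap in both, and the log2 fold changes were 0.75 (SE 0.370, adjusted p = 0.0940) and 0.64 (SE 0.370, adjusted p = 0.153). The call depends on single libraries, since Fos passes in the labelled KO without E12.5 library 3 (1.20, adjusted p = 0.0268). It passes in WT without E12.5 library 4 (1.04, adjusted p = 0.0384) and with limma-voom (0.89, adjusted p = 0.0461).

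In FVBxBALB/c embryos Fos had 1.53, 0.818, 0.890 and 0.966 CPM in Tg(Kat6b) at E15.5, against 0.437, 0.743, 0.911 and 1.71 CPM at E12.5. WT had 1.18, 1.01, 0.831 and 0.397 CPM at E15.5, against 0.505, 0.620, 0.733 and 1.11 CPM at E12.5. The E12.5 range of Tg(Kat6b) spans the whole E15.5 range, and the log2 fold changes of 0.17 (SE 0.414) and 0.18 (SE 0.421) did not pass. The library highest in Fos of all 32 was thus an E12.5 library, with 39 counts. The next, at 1.53 CPM, was Tg(Kat6b) E15.5 library 1 with 19 counts, so their order carries little weight.

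Npas4 varied most. It had 1.45, 1.04, 1.46 and 0.483 CPM in Tg(Kat6b) at E15.5, against 1.80, 0.258, 0.525 and 1.18 CPM at E12.5, and 0.979, 2.03, 1.73 and 1.69 CPM in FVBxBALB/c WT at E15.5, against 1.70, 1.40, 2.13 and 0.317 CPM at E12.5. The labelled KO had 2.20, 2.22, 1.94, 2.15 and 1.24 CPM at E15.5, against 0.495, 1.26 and 1.99 CPM at E12.5. C57BL/6 WT had 1.70, 2.45, 1.08, 1.15 and 1.64 CPM at E15.5, against 0.305, 1.22 and 0.843 CPM at E12.5. The ages overlap in all 4, and the log2 fold changes of 0.23, 0.25, 0.65 and 1.03 in that order did not pass, the last with an adjusted p of 0.0558.

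The C57BL/6 WT value of Npas4 passes with DESeq2 (adjusted p = 0.0426), with limma-voom (0.0496), without E12.5 library 3 (1.59, adjusted p = 0.0183) and without E15.5 library 3 (1.15, adjusted p = 0.0446). The labelled KO value passes without E12.5 library 4 (1.15, adjusted p = 0.0482). In all 4 groups at E12.5, the library lowest in Npas4 was also lowest in summed markers of diencephalon, midbrain and hindbrain, and in 3 of 4 it was lowest in neuron markers. At the high end the library was the same in 2 of 4 groups for the caudal markers and in 3 of 4 for the neuron markers. At E15.5 the caudal markers shared the highest library with Npas4 in 2 of 4 groups and the lowest in 1 of 4, and the neuron markers in 0 of 4 at either end. Across groups at E12.5 the sums of those caudal markers ran between 53.3 and 671 CPM. This was noticed after the values were seen, and its part in the Npas4 spread was not tested.

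Jund was the member that differed between the WT backgrounds. It had 137, 149, 188 and 172 CPM in FVBxBALB/c WT cortex at E15.5, against 315, 241, 280, 284 and 322 CPM in C57BL/6 WT cortex. At E12.5 it had 134, 125, 144 and 190 CPM in FVBxBALB/c WT, against 236, 312 and 329 CPM in C57BL/6 WT. Jund was lower in every FVBxBALB/c WT library than in any C57BL/6 WT library at either age, which was so for 12.4% of all genes at E15.5 and 8.03% at E12.5.

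The log2 fold change of Jund was -0.83 at E15.5 (SE 0.135, adjusted p = 4.77e-05) and -0.98 at E12.5 (SE 0.150, adjusted p = 4.39e-05). It was the 1 member of 9 called at each age, beside 25.3% and 12.8% of all genes tested in either direction and 11.3% and 7.19% in the lower direction. At E12.5, Jun and Ier2 pass as well without FVBxBALB/c WT library 4 (-0.38, adjusted p = 0.0122 and -0.58, adjusted p = 0.0198). Arc passes there without C57BL/6 WT library 1 (-0.74, adjusted p = 0.0215). The Tg(Kat6b) and labelled KO libraries had 120 to 184 CPM and 230 to 274 CPM of Jund at E15.5, and 124 to 182 CPM and 229 to 286 CPM at E12.5. Comparing these also compares genotypes, and no test was made.

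The Jund transcript is unusually rich in G and C. Its transcript GC content of 67.1% stood at the 99.8th percentile of 15890 tested genes with a value. Between the backgrounds, log2 fold changes fell with GC content over all genes. The tenth of genes above 58.0% GC had a median log2 fold change of -0.36 at E15.5 and -0.25 at E12.5, and the tenth below 41.4% had 0.27 and 0.15. The 39 genes richer in GC than Jund had medians of -0.84 and -0.81, close to Jund itself, and 34 and 33 of them were below 0. With a GC correction chosen after the data were seen, Jund was at -0.23 (adjusted p = 0.0481) at E15.5 and -0.42 (adjusted p = 0.00231) at E12.5. Background, batch and the GC trend cannot be told apart here.

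**Figure D4:**
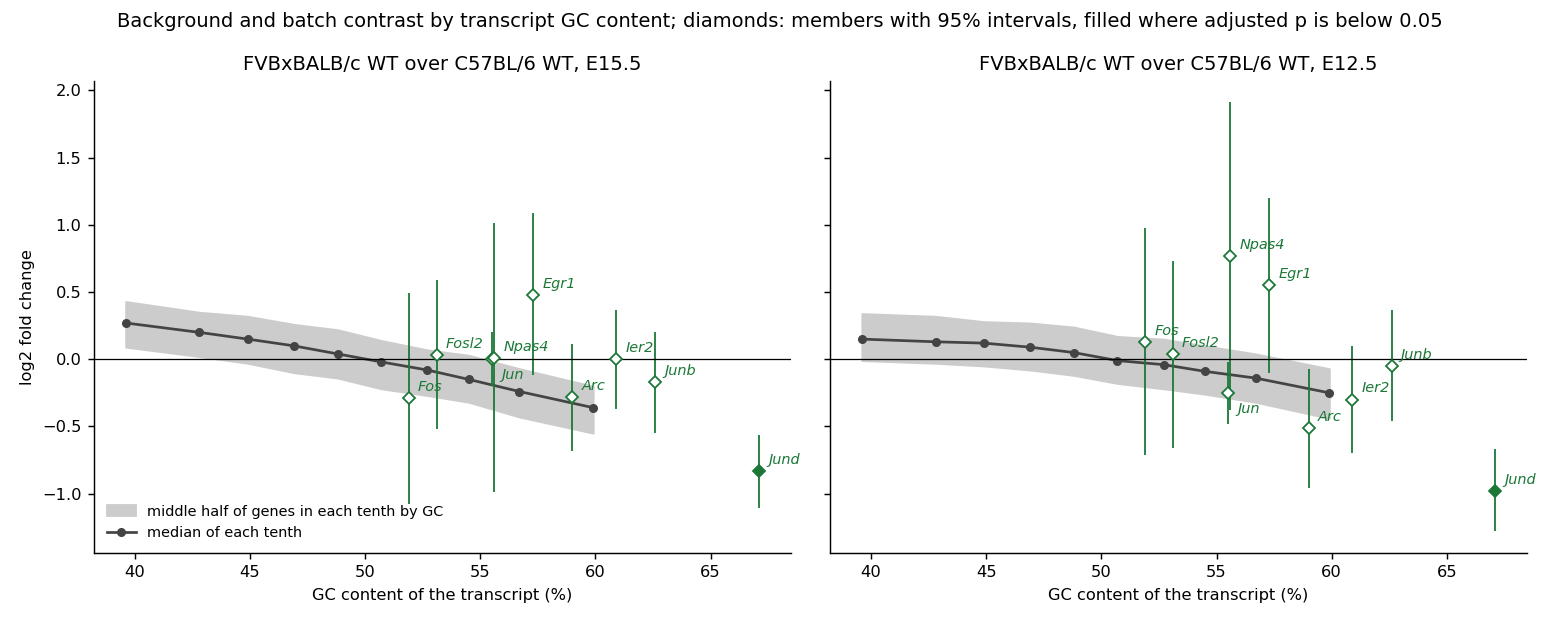
Log2 fold change of FVBxBALB/c WT over C57BL/6 WT against transcript GC content (%) at E15.5 (left) and E12.5 (right); the line joins the medians of 10 groups of genes ordered by GC content, the band spans their quartiles, and diamonds are the 9 tested members with 95% intervals, filled where they passed. The medians run downward with GC content, and Jund, at 67.1% GC, lies at -0.83 and -0.98.

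Within groups the members differed in how much they varied between embryos. The SD of log2 CPM around the group mean was 0.763 for Npas4, 0.511 for Fos, 0.450 for Fosl2, 0.440 for Egr1, 0.279 for Arc, 0.272 for Ier2, 0.263 for Junb, 0.209 for Jund and 0.150 for Jun (32 libraries). Low counts add counting error to the first of these. FVBxBALB/c WT library 4 at E12.5 was the highest of its group in 9 of the 10 members and the lowest in Npas4. In that library Egr1 had 8.62 CPM, beside 3.60 to 4.67 CPM in the others of its group. It was also highest of the group in summed meningeal markers (2607 CPM) and erythroid markers (9780 CPM) and lowest in neuron markers (3079 CPM). Tg(Kat6b) library 1 at E12.5 was the lowest of its group in 8 of the 10. It was highest of its group in summed neuron markers (5548 CPM) and lowest in meningeal (371 CPM), erythroid (1473 CPM), endothelial (252 CPM) and microglial markers (47.0 CPM). The part of these cells in the members' values was not tested.

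Fos varied together with 2 of the other 8 tested members. Deviations of log2 CPM from the group mean were correlated over the 32 libraries, with labels permuted within groups (100000 permutations, 2-sided) and p-values adjusted over the 8 pairs. Fosl2 gave Pearson r = 0.60 (permutation p = 0.00263, adjusted p = 0.0210) and Spearman rho = 0.57 (permutation p = 0.00337, adjusted p = 0.0221). Ier2 gave r = 0.50 (permutation p = 0.00971, adjusted p = 0.0388) and rho = 0.54 (permutation p = 0.00552, adjusted p = 0.0221). The other 6 did not pass, from r = 0.40 for Junb (adjusted p = 0.125) to r = -0.26 for Npas4 (adjusted p = 0.369). Fos had only 4 to 56 counts per library. At E12.5 the library lowest in Fos was also lowest in summed meningeal markers in every group. The highest was the same library in every group but C57BL/6 WT. At E15.5 the highest coincided in no group, and the lowest in FVBxBALB/c WT alone. The part of tissue makeup and counting error in these correlations was not tested.

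Within a background, which is also a batch, neither pair passed. Fosl2 gave r = 0.60 in FVBxBALB/c (permutation adjusted p = 0.134) and 0.61 in C57BL/6 (adjusted p = 0.0697, 16 libraries each), and Ier2 gave 0.59 (adjusted p = 0.134) and 0.35 (adjusted p = 0.412). By Spearman the adjusted permutation p was 0.210 and 0.0706 for Fosl2 and 0.0866 and 0.358 for Ier2. Without the 2 libraries farthest in Fos, which were Tg(Kat6b) E12.5 library 4 and FVBxBALB/c WT E15.5 library 4, r was 0.61 for Fosl2 and 0.54 for Ier2. By both coefficients Jun (r = 0.53, permutation adjusted p = 0.0134; rho = 0.49, adjusted p = 0.0247) and Junb (r = 0.43, adjusted p = 0.0333; rho = 0.47, adjusted p = 0.0247) then passed too. Egr1 passed by Pearson (r = 0.48, permutation adjusted p = 0.0333) and not by Spearman (rho = 0.44, adjusted p = 0.0653). These values without the 2 farthest libraries used deviations from group means that still included them. Differences between groups therefore enter these coefficients. Without labelled KO E15.5 libraries 3 and 4, Fosl2 passed by Pearson (r = 0.59, permutation adjusted p = 0.0426) and not by Spearman (rho = 0.53, adjusted p = 0.0571). Ier2 passed by neither (r = 0.48, permutation adjusted p = 0.0659, and rho = 0.50, adjusted p = 0.0571).

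**Figure D5:**
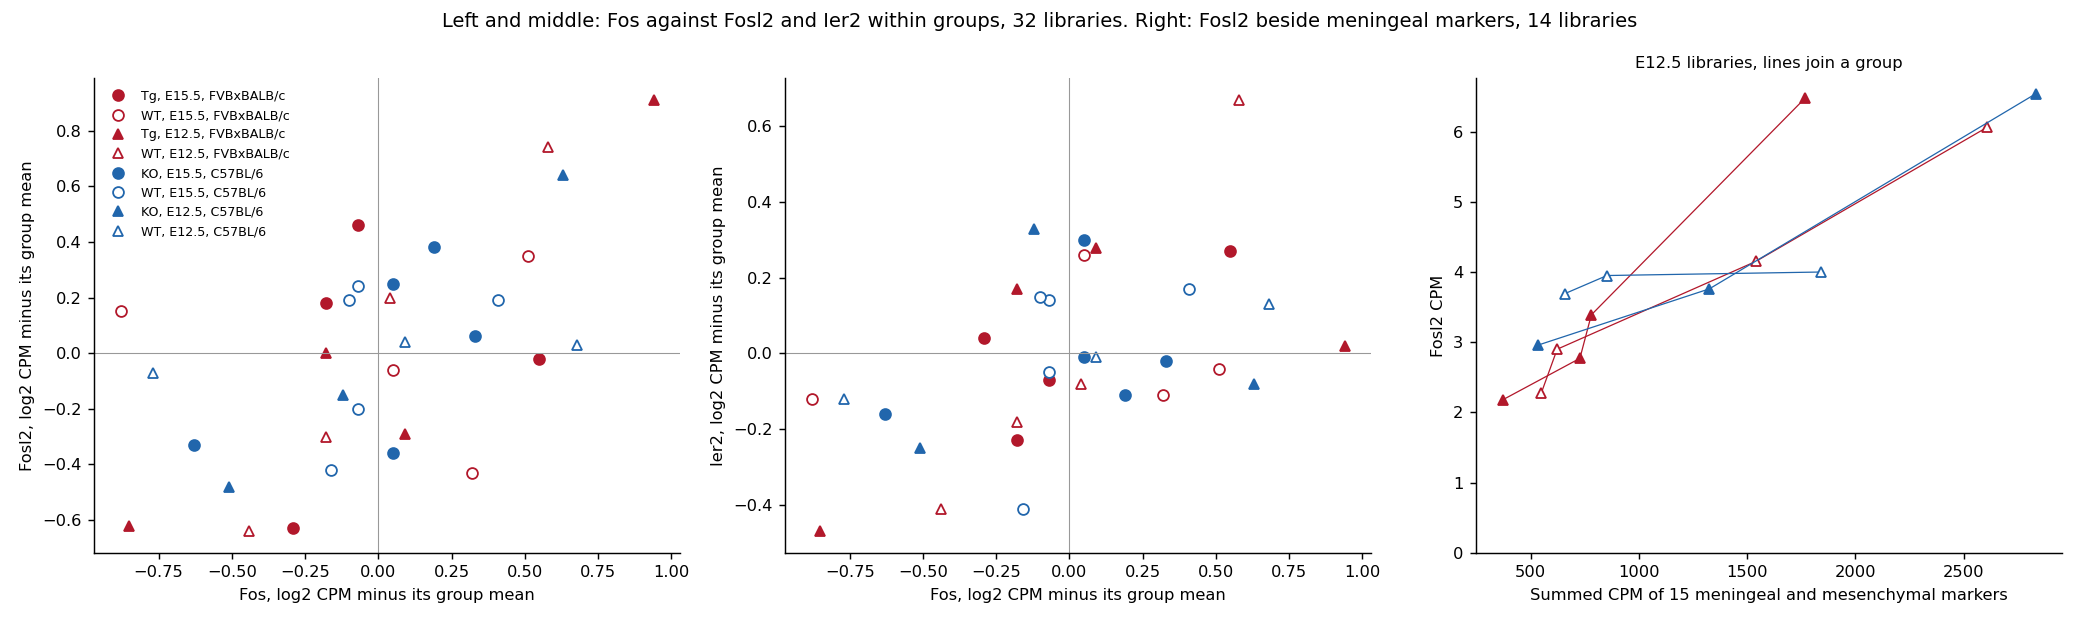
Left and middle, deviation of log2 CPM from the group mean for Fosl2 and Ier2 (y axes) against Fos (x axis), 1 point per library, n = 32; right, Fosl2 CPM against the summed CPM of 15 meningeal markers in the 14 libraries at E12.5, with lines joining a group. Fosl2 (r = 0.60) and Ier2 (r = 0.50) rise with Fos, and the library highest in meningeal markers is the highest in Fosl2 in all 4 groups. In C57BL/6 WT, Fosl2 spans only 3.69 to 4.00 CPM.

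The genes whose within-group pattern was most like each member were picked by the highest Pearson r of the same deviations over 32 libraries, as a description. Those nearest to Fos were Mbtps1 (r = 0.76), Wisp1 (0.73), Frmd6 (0.71), Olfml3 (0.71) and Ifnar2 (0.70). Fosl2 was nearest to Prickle1 (0.91), Jun to Lhx2 (0.90), Junb to Lzts2 (0.87) and Jund to Fzr1 (0.90). Egr1 was nearest to Smad3 (0.79), Ier2 to Efna4 (0.90), Arc to Arrb2 (0.71) and Npas4 to Slc4a3 (0.90). Such values are the highest of many genes and share each library's depth and tissue makeup.

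Other genes of the pathway were counted in the same comparisons. No gene of the lists of other immediate early genes, AP-1 partners, upstream factors, kinases, feedback inhibitors, activity-regulated effectors or heat shock genes passed in any genotype comparison, where at most 0.0129% of all genes did. With age, 25.1% of all genes rose and 25.1% fell in FVBxBALB/c WT, and 28.6% rose and 28.2% fell in C57BL/6 WT. The counts of each list below stand beside these shares, were not tested against them, and describe the list only. In the same comparisons 8 of 24 other immediate early genes rose and 5 fell in FVBxBALB/c WT, and 9 rose and 5 fell in C57BL/6 WT. Their median log2 fold changes were 0.04 and 0.10, beside -0.03 and -0.02 over all genes. Nr4a3, an orphan nuclear receptor, rose by 3.53 and 3.81 on the log2 scale in FVBxBALB/c and C57BL/6 WT, Myc rose by 0.69 and 0.84, and Btg2, an antiproliferative gene of neurogenic progenitors, fell by 0.54 and 0.72.

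Among 13 tested bZIP genes whose proteins can pair with FOS or JUN proteins, 4 rose and 1 fell in FVBxBALB/c WT, and 4 rose and 2 fell in C57BL/6 WT. Nfe2l2, which encodes the oxidative stress factor NRF2, fell by 0.65 and 0.68 on the log2 scale. Of 17 transcription factors and coactivators that act on immediate early promoters, 5 rose and 3 fell in FVBxBALB/c WT and 7 rose and 3 fell in C57BL/6 WT. Mef2c, a factor of maturing neurons, rose by 2.60 and 2.52, and the CREB coactivator Crtc1 by 0.75 and 1.01. Srf rose by 0.31 and 0.23, and with a GC correction its value in FVBxBALB/c WT was 0.04.

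Of 19 kinases upstream of these genes, 10 rose and 3 fell in FVBxBALB/c WT and 9 rose and 4 fell in C57BL/6 WT. The calcium-dependent kinases Camk2b (3.14 and 3.38 on the log2 scale) and Camk4 (2.41 and 2.73) rose, as did Rps6ka5 (1.31 and 1.56), which encodes the histone kinase MSK1. Of 12 feedback inhibitors of MAP kinase signalling, 2 rose and 3 fell in FVBxBALB/c WT and 2 rose and 4 fell in C57BL/6 WT, with Spry1 lower by a log2 value of -1.81 and -1.55. The C57BL/6 counts rested on 1 library, since without C57BL/6 WT E12.5 library 1 only 1 rose and 1 fell (Dusp7 at an adjusted p of 0.0749 and Spred1 at 0.103 no longer passed), and without library 3 Dusp2 did not pass (0.0595). Of 19 activity-regulated effector genes of neurons, 13 rose and 2 fell in FVBxBALB/c WT and 15 rose and 1 fell in C57BL/6 WT, at medians of 1.17 and 1.56, where all 12 neuron markers rose as well. Vgf, a secreted neuropeptide precursor, rose by 2.07 and 2.84 and Rasgrf1 by 3.90 and 4.44. Of 12 heat shock genes, 1 rose and 2 fell in FVBxBALB/c WT and 1 rose and 4 fell in C57BL/6 WT, where the number that fell was 1 without E12.5 library 1 and 7 without E12.5 library 3. With 1 library left out, the number that fell in FVBxBALB/c and C57BL/6 WT was 3 to 5 and 4 to 6 for the other immediate early genes, 1 to 2 and 1 to 2 for the bZIP genes, 3 to 5 and 1 to 2 for the factors and coactivators, and 2 to 4 and 2 to 4 for the kinases.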

How the data were processed

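Total RNA from each embryo (RNeasy columns with DNase) was made into libraries with the TruSeq RNA kit v2 and read on a NextSeq500 over 66 bp from both ends, per the labels' protocols. The authors deposited raw counts per gene, 1 table per library with gene identifiers and lengths. Per the submitters' processing notes, bcl2fastq and featureCounts were used with mm10; the sources used here name no version, aligner, annotation or strand setting. Each table has 27179 rows, of which 848 name no gene; these held 0.305 to 2.00% of the counts and were left out.

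edgeR 4.0.16 (R 4.3.3) was used with TMM scaling, and genes were filtered with filterByExpr (minimum count 10, minimum total 15). Genes were tested by edgeR's quasi-likelihood F test, 2-sided, with a mean per group. Genotype and age effects came from a fit of the 16 libraries of a background (16118 genes in C57BL/6, 15556 in FVBxBALB/c). Effects between backgrounds came from all 32 libraries (16399 genes). P-values were adjusted by Benjamini-Hochberg over all genes of a comparison and called under 0.05. An SE was worked back from a fold change on the log2 scale and its F value. Intervals are at 95% for each gene alone and are not adjusted over genes, and counting limits cover counting error only. The WT age comparisons were also run on counts simulated as independent draws. These do not copy shared litters or differences in tissue makeup, so no conclusion is drawn from them. Alternatives were limma-voom (limma 3.58.1), DESeq2 1.42.0, other scaling, no filter, other fits and blocks, left-out libraries and a GC correction, the last added after the data were seen. The test of the age effect between backgrounds was also added then.

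Within an age, C57BL/6 libraries with the same number share a litter per the labels, so at E15.5 the numbers pair them by litter. At E12.5 replicates 3 and 4 of both genotypes come from the same litter, so pairing these by number is arbitrary. The same number at different ages names different litters. The deviations of same-numbered C57BL/6 libraries correlated at -0.11 to 0.39 at E15.5 and at -0.36 to 0.39 at E12.5.

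The members, the other lists and the named-gene rule were chosen with earlier results of these data known. The rule names all members and Kat6b, up to 4 genes of each other list with the smallest adjusted p with age in each WT background, and the genes with the highest correlation to a member; of these, a part is printed.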

Additional observations from a re-analysis of the deposited data

Results flagged for a closer look

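In groups of 4 or 5 libraries, a library was singled out where its gap to the nearest of the others exceeded Dixon's 95% critical share of the group's range. This held in 5 of 60 combinations of member and group, and chance gives about 1 in 20. Fos had 1.41 CPM in C57BL/6 WT E15.5 library 5, beside 0.918 to 0.984 CPM in the other 4; this library carries the column header that names E12.5. Npas4 had 1.24 CPM in labelled KO E15.5 library 5, beside 1.94 to 2.22 CPM, and this library has the same kind of header and a tissue label of dorsal telencephalon. Both libraries numbered 5 lay outside the C57BL/6 E12.5 ranges in the neuron and erythroid sums given above. Ier2 had 19.4 CPM in labelled KO E15.5 library 2, beside 14.1 to 15.6 CPM. Egr1 had 2.44 CPM in Tg(Kat6b) E12.5 library 1, beside 4.47 to 4.81 CPM. Fosb had 0 CPM in C57BL/6 WT E15.5 library 1, beside 0.148 to 0.204 CPM in the others, and a count of 0 there allows up to 0.268 CPM.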

How the results depend on the processing

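The counts of members called were 0 for both genotypes at both ages, and for the change of the genotype effect with age, under every alternative run, each left-out library included. With age they ranged from 2 to 4 in Tg(Kat6b), 2 to 3 in FVBxBALB/c WT, 5 to 6 in the labelled KO and 5 to 7 in C57BL/6 WT when 1 library was left out. Between backgrounds they ranged from 1 to 1 at E15.5 and from 1 to 3 at E12.5. Fos varied with 2 members by either coefficient, and with 1 by Pearson and 0 by Spearman when labelled KO E15.5 libraries 3 and 4 were both left out. The age value of Jund in Tg(Kat6b) was 0.08, and with the GC correction it was -0.35. With the replicate number as a block across ages, 3, 2, 5 and 5 members were called with age in Tg(Kat6b), FVBxBALB/c WT, the labelled KO and C57BL/6 WT. In C57BL/6 the same number at different ages names different litters, so this block does not adjust the age calls for litter. The FVBxBALB/c numbers share no stated litter and their libraries correlated at -0.14 to 0.60; there the block ended the call of Junb in WT (0.62, adjusted p = 0.0614). The block changed no other call on a member. The cause of these changes was not tested.

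Counts over all genes moved more. For the labelled KO, DESeq2 called 7 genes at E15.5 and 3 at E12.5, where edgeR called 0 and 1; a fit of only the compared groups called 2 and 0, a litter block 1 and 0, the fit of all 32 libraries 1 at E15.5, and the GC correction with the block 1 at E15.5 and 0 at E12.5. Without single libraries the E12.5 count was 0 to 2. For Tg(Kat6b), DESeq2 called 7 and 4, where edgeR called 2 and 2, and at E15.5 the fit of all 32 libraries and that of the compared groups each called 4. Between backgrounds 4142 genes at E15.5 and 2095 at E12.5 became 2112 and 1342 with the GC correction, and without single libraries 2918 to 4059 and 859 to 3323. For the age effect between backgrounds, 5 genes became 16 with DESeq2, 1 with limma-voom, 3 with the block, 2 without both libraries numbered 5 and 1 to 7 without single libraries. The 0 genes called for each change of the genotype effect with age became 1 with DESeq2. Depth limits Fosb, Fos and Npas4, with few counts per library.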
